A study of Mus musculus with 4 samples.

Results

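The 32 genes described here drive DNA replication and mitosis. They were chosen by name, and all 32 were found among the 21887 protein-coding genes of the annotation. The S-phase class holds 20 of them, the genes that license and copy DNA or govern the step from G1 into S phase, and the mitotic class holds 12. The data are peaks of open chromatin from ATAC-seq, an assay that reads where the transposase Tn5 can enter the DNA. The cells were mouse hair follicle stem cells (HFSC), sorted against Ly-6A/E and for CD34 and CD45f, as the labels spell the last marker. The groups were Irx5KO (2 samples) and WT (2 samples), where Irx5 encodes a homeodomain transcription factor. The sources used here do not give the age or sex of the mice, the Irx5 allele or any pooling of animals. The authors deposited 1 peak list for both samples of each genotype, so there was no spread between replicates and no test between genotypes was made. Intervals are 95% Wilson intervals, which cover counting error only, and peaks of 1 gene are not independent of each other.

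Replication starts when the origin recognition complex, Cdc6 and Cdt1 load the ring of Mcm2 to Mcm7 onto DNA during G1. Cyclin E with Cdk2 and the E2F factors, freed from Rb1, then bring the cell into S phase, and cyclins A and B with Cdk1 bring it into mitosis. In resting cells most of these genes are held low at their promoters, S-phase genes through E2F sites and mitotic genes through an element called CHR (cell cycle genes homology region) that often stands with CCAAT boxes, which NF-Y binds. HFSC rest for most of the hair cycle and divide when a new growth phase begins. Open chromatin at a promoter shows that it is accessible and does not measure transcription.

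The promoters are shown because they hold the elements by which the classes are known to be controlled, and because most of them carry a listed peak. Each window runs from 250 bases before a transcript start to 50 after it, from a RefSeq table of GRCm38 that matched 25 of the 32 genes. The others were Ccne2, Mcm4, Rb1, Gmnn, Ccna2, Aurkb and Cdc25c. The searched letters were TTTCGCGC or TTTGGCGC for E2F, TTTGAA or TTCGAA for CHR and CCAAT for the CCAAT box, on both strands, and matches are in capitals. The 3 S-phase genes with the most matches were Mcm5 (chr8:75109259-75109558, plus strand), Mcm6 (chr1:128359656-128359955, minus strand) and Mcm7 (chr5:138171834-138172133, minus strand), which encode subunits of the replicative helicase.
Mcm5: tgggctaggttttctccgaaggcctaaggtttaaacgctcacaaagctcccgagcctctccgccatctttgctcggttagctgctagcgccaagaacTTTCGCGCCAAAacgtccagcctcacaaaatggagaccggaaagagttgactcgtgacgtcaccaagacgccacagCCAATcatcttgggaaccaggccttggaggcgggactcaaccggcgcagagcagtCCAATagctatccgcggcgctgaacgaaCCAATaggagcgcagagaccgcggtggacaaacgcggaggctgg
Mcm6: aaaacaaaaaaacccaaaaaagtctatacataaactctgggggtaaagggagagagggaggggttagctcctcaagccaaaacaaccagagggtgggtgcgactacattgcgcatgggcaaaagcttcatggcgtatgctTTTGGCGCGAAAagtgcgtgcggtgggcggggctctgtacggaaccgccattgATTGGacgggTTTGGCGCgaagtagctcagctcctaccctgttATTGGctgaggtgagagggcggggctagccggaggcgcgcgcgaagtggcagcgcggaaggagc
Mcm7: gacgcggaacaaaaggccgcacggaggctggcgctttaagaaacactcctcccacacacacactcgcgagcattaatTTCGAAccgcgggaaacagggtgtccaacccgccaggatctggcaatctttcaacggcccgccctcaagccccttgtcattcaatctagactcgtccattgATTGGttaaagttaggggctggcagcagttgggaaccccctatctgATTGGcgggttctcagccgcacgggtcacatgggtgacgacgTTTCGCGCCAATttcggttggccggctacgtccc
The 3 mitotic genes with the most matches were Top2a (chr11:99024140-99024439, minus strand), which encodes a DNA topoisomerase, Cdk1 (chr10:69352863-69353162, minus strand), the kinase of mitotic entry, and Ccnb2 (chr9:70421505-70421804, minus strand), which encodes cyclin B2. Mki67 had as many matches as Ccnb2 and comes later in the list.
Top2a: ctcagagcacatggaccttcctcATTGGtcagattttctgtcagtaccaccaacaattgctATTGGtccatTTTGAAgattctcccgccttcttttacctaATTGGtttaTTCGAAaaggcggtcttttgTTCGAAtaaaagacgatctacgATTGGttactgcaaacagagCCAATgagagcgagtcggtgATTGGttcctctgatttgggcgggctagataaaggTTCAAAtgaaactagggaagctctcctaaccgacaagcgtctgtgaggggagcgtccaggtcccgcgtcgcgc
Cdk1: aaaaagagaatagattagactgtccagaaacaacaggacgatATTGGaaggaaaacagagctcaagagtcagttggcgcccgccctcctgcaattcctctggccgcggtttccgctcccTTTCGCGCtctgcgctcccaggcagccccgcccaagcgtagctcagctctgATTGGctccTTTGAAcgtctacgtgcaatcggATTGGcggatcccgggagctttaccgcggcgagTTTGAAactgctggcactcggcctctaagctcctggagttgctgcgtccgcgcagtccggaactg
Ccnb2: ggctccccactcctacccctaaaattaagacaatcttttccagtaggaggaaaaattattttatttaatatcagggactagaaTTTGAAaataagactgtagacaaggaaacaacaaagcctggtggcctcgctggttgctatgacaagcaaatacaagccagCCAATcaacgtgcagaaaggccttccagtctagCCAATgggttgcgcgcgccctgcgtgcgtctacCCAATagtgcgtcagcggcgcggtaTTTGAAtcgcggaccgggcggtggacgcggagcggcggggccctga
With the transcript start counted as position 0, Mcm5 held an overlapping pair of E2F matches, 1 on each strand, from -153 to -142. Mcm6 held such a pair from -110 to -99 and a further match on 1 strand from -47 to -40. In Mcm7 the E2F match from 16 to 23 and a CCAAT match from 23 to 27 share a base.

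The share of windows with each motif was counted by class, and differences between the classes were not tested. E2F letters stood in 8 of the 19 S-phase windows, 42.1% (23.1 to 63.7), in 1 of the 9 mitotic windows, 11.1% (1.99 to 43.5), that of Cdk1, and in 1.05% of the 21263 windows of all protein-coding genes. The intervals of the 2 classes overlap, and the shorter E2F core (TTCGCGC or TTGGCGC) stood in 47.4% of S-phase windows (27.3 to 68.3), 33.3% of mitotic windows (12.1 to 64.6) and 4.999% of all windows. CHR letters stood in 5 S-phase windows, 26.3% (11.8 to 48.8), in 8 of 9 mitotic windows, 88.9% (56.5 to 98.01), and in 17.6% of all windows. Ccnb1, which encodes cyclin B1, was the mitotic window without them. CCAAT boxes stood in 14 S-phase windows, 73.7% (51.2 to 88.2), in all 9 mitotic windows and in 38.2% of all windows. CHR and CCAAT letters stood together in 5 S-phase and 8 mitotic windows, against 7.11% of all windows. Top2a had the most matches, 4 of CHR and 6 of CCAAT. A match is a run of letters and not a shown binding site, and genes with several starts give several windows. The median CpG observed-to-expected ratio was 0.875 in S-phase windows, 0.952 in mitotic windows and 0.567 in all windows.

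**Figure D1:**
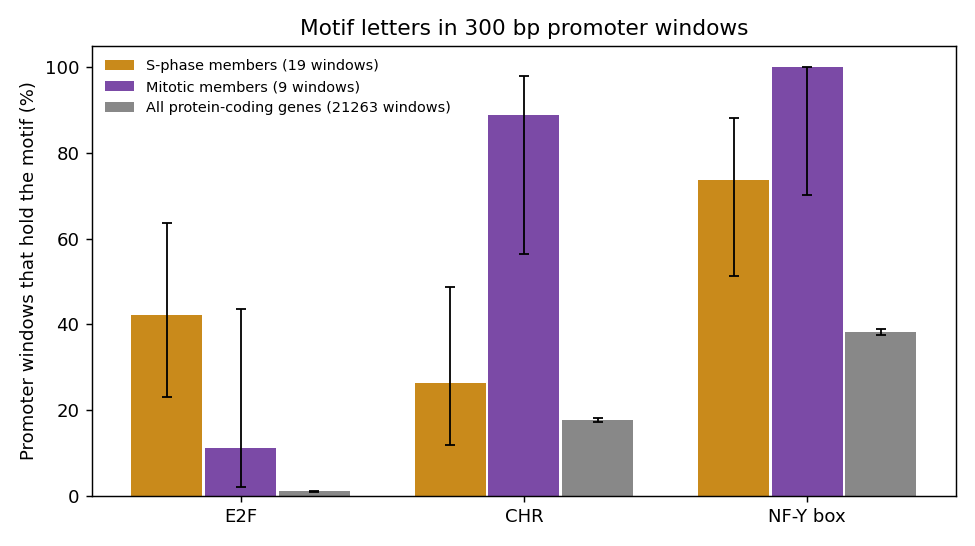
Share of 300 bp promoter windows (y axis, percent) that hold E2F, CHR or CCAAT letters (the last labelled NF-Y box) in S-phase members (19 windows), mitotic members (9) and all protein-coding genes (21263); error bars are 95% Wilson intervals. E2F letters stood in 42.1% of S-phase windows and CHR letters in 88.9% of mitotic windows, against 1.05% and 17.6% of all windows, and the intervals of the S-phase and mitotic classes overlap for E2F.

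Almost all of these genes had open chromatin at a gene end in both genotypes. A gene-end peak, or end peak, is here any listed peak that overlaps the 1000 bp to either side of an annotated end of the gene. It was listed in both genotypes for 29 of the 32 genes, 18 of 20 in the S-phase class and 11 of 12 in the mitotic class, against 75.2% of all protein-coding genes. None of the 32 had it in Irx5KO only, where the background is 6.07% of genes, and none in WT only, where it is 3.99%. Orc1, E2f2 and Ccnb2 had one in neither list, as did 14.7% of all genes. Ends of another protein-coding gene lay within 1000 bp of an end of 9 of the 32 genes (28.1%), against 24.8% of all genes, and there a peak may belong to either gene.

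Transcript starts placed Orc1 and E2f2 with the other genes and left Ccnb2 alone. Orc1 encodes the largest subunit of the origin recognition complex, and its table start (chromosome 4, 108579454) lies inside the annotated gene span. Peaks of 950 bp in Irx5KO and 720 bp in WT covered that start. Their midpoints lie nearer to an end of another coding gene, so they do not count among the peaks assigned to Orc1 below. E2f2, an activator E2F, had no peak at its outer start, but its inner start at 136180782 on chromosome 4 had peaks of 1730 bp in Irx5KO and 1260 bp in WT. At Ccnb2 neither list held a peak within the gene. The nearest peaks upstream of its start ended 12.3 kb away in Irx5KO and 12.1 kb in WT, and the nearest downstream began at 23.3 kb and 23.2 kb. The nearest upstream peaks were assigned to Rnf111 and the nearest downstream ones to Myo1e.

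Counted by promoter window, 25 of the 28 member windows were covered by a peak in both lists, against 59.6% of all windows. The window of Cdc6 was covered in Irx5KO only, as were 6.68% of all windows, and no member window in WT only, against 3.37%. The window of Ccnb2 and the outer window of E2f2 were covered in neither, against 30.3% of all windows. Cdc6 loads the Mcm ring together with Cdt1. Its Irx5KO peak (chromosome 11, 98907631 to 98908000) was 370 bp wide, ended 151 bp before the transcript start and had a score at or above that of 43.7% of its list. The WT list had no peak within 1000 bp of that start. Its best gene-end peak at Cdc6 lay at the far end of the gene (98922891 to 98923280) with a score at or above that of 12.3% of its list. The Irx5KO list also had a peak at that far end (98923401 to 98923750). It did not overlap this WT peak but a lower WT peak beside it (98923561 to 98923800, percentile 8.93). Cdc6 thus counts above as having an end peak in both genotypes, while its start peak was listed in Irx5KO only.

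Peaks lay at the starts and seldom at the other end. Among the 24 genes whose table start lies within 1000 bp of the gene's own end, 22 had a peak within 1000 bp of the start in Irx5KO (91.7%) and 21 in WT (87.5%), against 77.7% and 75.5% of all such genes. At the far end 4 had one in Irx5KO (16.7%) and 5 in WT (20.8%), against 35.9% and 35.6%. Of genes with several table starts, the start with the lowest coordinate was used for the summits, whatever the strand. Where that start had a peak, the summit lay within 300 bp of it in 19 of 23 genes in Irx5KO (82.6%) and 19 of 22 in WT (86.4%). Over all protein-coding genes these shares were 65.6% and 63.6%. At Cdk1 the summit was 84 bp upstream of the start in both lists, and at Plk1, which encodes polo-like kinase, 59 bp upstream in both. At position 0 a peak covered 13 of 15 S-phase genes in both lists, and 8 of 9 mitotic genes in Irx5KO and 7 of 9 in WT.

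**Figure D2:**
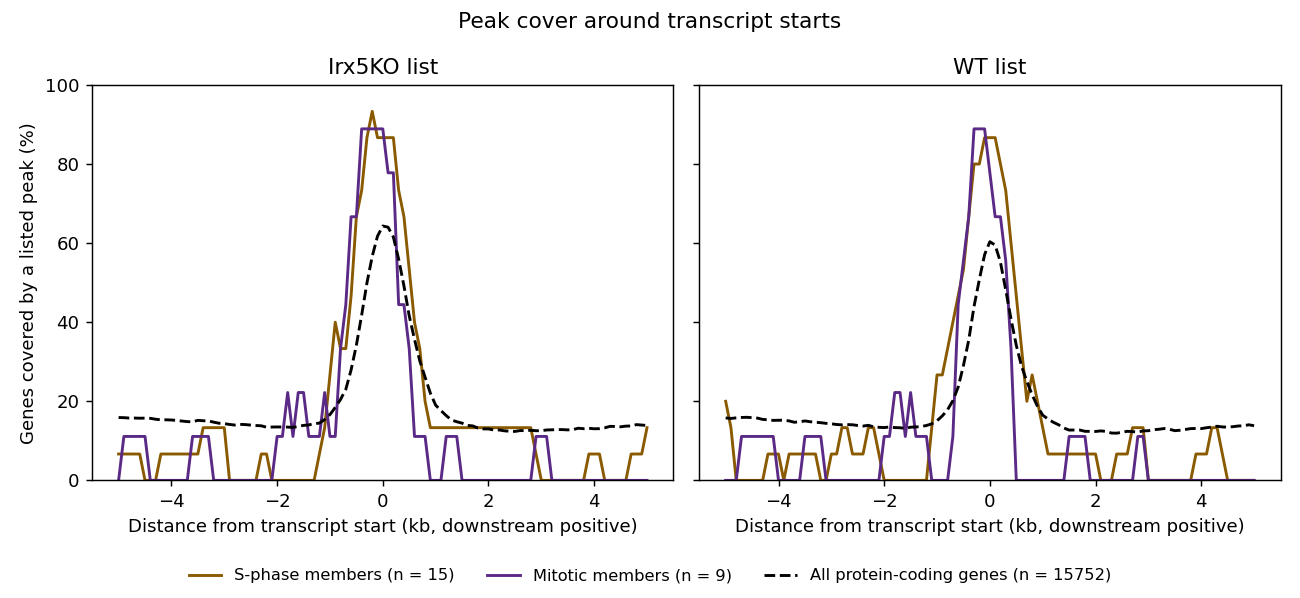
Percent of genes covered by a listed peak (y axis) at each distance from the transcript start (x axis, kb, downstream positive), for S-phase members (n = 15), mitotic members (n = 9) and all protein-coding genes (n = 15752), with the Irx5KO list on the left and the WT list on the right. At the start itself 86.7% of S-phase genes were covered in both lists, against 64.3% of all genes in Irx5KO and 60.4% in WT.

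The score of a peak was the authors' own, with no stated scale, so each peak was placed by its percentile of score within its own list, where 100 is the highest. Percentiles are positions and not levels, and ranks of lists of unequal length show no change in accessibility. The best gene-end peaks of these genes stood above those of most genes in both lists. The median percentile over S-phase genes was 81.4 in Irx5KO and 66.5 in WT, that over mitotic genes 77.9 and 62.1, and that over all protein-coding genes 62.0 and 53.1. The Irx5KO position was the higher of the pair in 27 of the 29 genes with a peak in both, in 18 of 18 S-phase and 9 of 11 mitotic genes. At Cdc6 the pair sets the start peak of Irx5KO beside the far-end peak of WT. At that far end the best percentiles were 12.99 in Irx5KO and 12.3 in WT, from peaks that do not overlap each other. The background is high, at 73.5% of the 16460 such genes, and 79.5% of the other genes whose mean percentile lay in the interquartile range of the 29, 60.9 to 86.04. The best peak was wider in Irx5KO in 20 of the 29, against a background of 64.3%.

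**Figure D3:**
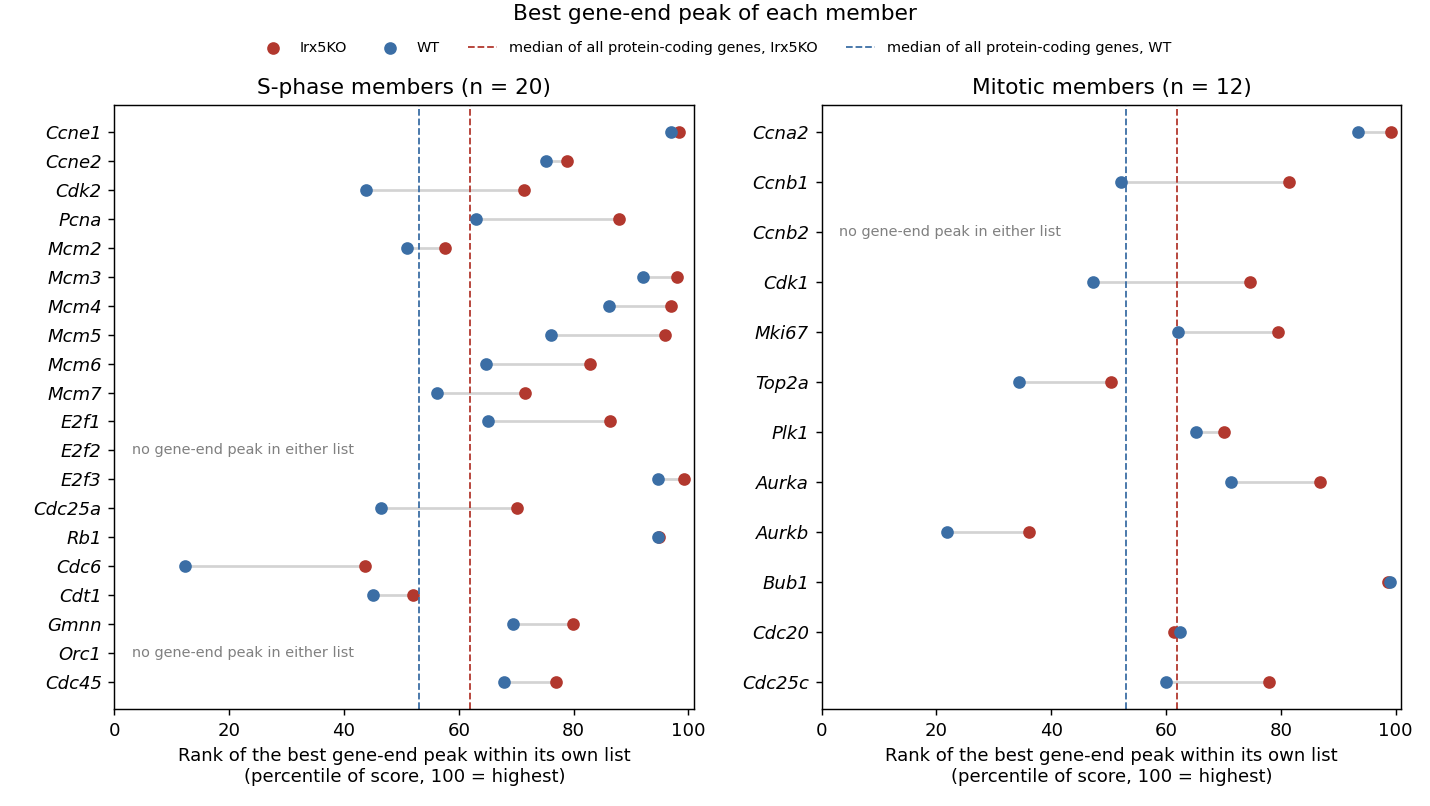
Percentile of score within its own list (x axis) of the best gene-end peak of each gene, for Irx5KO (red) and WT (blue), with S-phase members on the left and mitotic members on the right; dashed lines are the medians over all protein-coding genes, 62.0 in Irx5KO and 53.1 in WT. The Irx5KO point lies to the right of the WT point in all genes with a peak except Bub1 and Cdc20, and Orc1, E2f2 and Ccnb2 have no gene-end peak. The points of Cdc6 are peaks at opposite ends of the gene.

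Among the licensing genes the helicase subunits ranked from high to middle. Mcm3 stood at percentile 98.03 in Irx5KO and 92.1 in WT, Mcm4 at 96.9 and 86.1, and Mcm5 at 95.9 and 76.15. Mcm6 stood at 82.8 and 64.7, Mcm7 at 71.6 and 56.2, and Mcm2 at 57.7 and 50.9. All 6 subunits thus had a gene-end peak in both lists, and Mcm2 stood lowest of them in both. Gmnn, whose product geminin blocks Cdt1, stood at 79.9 and 69.5, Cdt1 at 52.0 and 45.1, and Cdc6 at 43.7 and 12.3. Cdc6 and Cdt1 were, with Mcm2, the lowest of the S-phase class by the mean of both lists apart from the genes with no gene-end peak; Cdk2, at 71.4 in Irx5KO and 43.8 in WT, came next.

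At the fork and at the G1 to S step, Pcna, the sliding clamp, stood at percentile 87.9 in Irx5KO and 63.0 in WT, and Cdc45, which joins the Mcm ring in the active helicase, at 76.9 and 67.8. Ccne1, which encodes cyclin E1, was the highest of the class by the mean of both lists, at 98.3 and 96.95, followed by E2f3 and Mcm3. Ccne2 stood at 78.8 and 75.2. E2f3, an activator E2F, stood at 99.3 and 94.8, and E2f1 at 86.4 and 65.2. The Irx5KO peak over the E2f3 start was 3920 bp wide and spanned both table starts, whereas WT had separate peaks of 1040 bp and 1280 bp over them. Cdc25a, the phosphatase that activates Cdk2, stood at 70.1 and 46.4.

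Rb1 and, in the mitotic class, Bub1 had as their best end peak a wide peak at the lower end of the gene. Rb1 encodes the retinoblastoma protein that holds E2F factors. Its best gene-end peak was 7490 bp wide in Irx5KO and 7480 bp in WT, at percentiles 94.8 and 94.7, while the peak at its upper end was 1640 bp wide in Irx5KO, at 58.4, and 940 bp in WT, at 57.15. Bub1 encodes a kinase of the spindle checkpoint. Its best peak was 6780 bp wide in Irx5KO and 6790 bp in WT, at 98.6 and 99.1, at the far end from the transcript start. At the Bub1 start the peaks were 870 bp and 300 bp wide and stood at 49.6 in Irx5KO and 38.7 in WT, the same order as in most genes.

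In the mitotic class Ccna2, which encodes cyclin A2, stood at percentile 99.1 in Irx5KO and 93.4 in WT. Aurka, a kinase of the spindle poles, stood at 86.8 and 71.3, next below Bub1 and Ccna2 by the mean of both lists. Ccnb1 stood at 81.5 and 52.1, Cdk1 at 74.55 and 47.3, and Cdc25c, the phosphatase that activates Cdk1, at 77.9 and 60.0. These 3 genes of mitotic entry lay above the all-gene median of Irx5KO and on both sides of that of WT. Mki67, which encodes the proliferation marker Ki-67, stood at 79.5 and 62.1, and Plk1 at 70.1 and 65.2. Cdc20, which activates the anaphase-promoting complex, stood at 61.35 and 62.4 and was, with Bub1, the exception to the common order. Top2a at 50.5 and 34.4, and Aurkb, a kinase of the centromere, at 36.1 and 21.8, were the lowest, below the all-gene medians in both lists.

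When both lists were cut to their upper 50% by score, 22 of the 32 genes kept a gene-end peak in both, against 40.4% of all genes. In Irx5KO only it remained at 5 genes, Cdk2, Cdc25a, Cdt1, Cdk1 and Top2a (15.6%), against 11.7% of all genes, and at none in WT only, against 2.63%. The share in Irx5KO only is near its background.

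The rest of each gene's surroundings was counted by giving every peak to the coding gene whose end lay closest to the peak's midpoint, up to 50 kb away, and calling a peak shared if it overlapped the other list by at least 1 bp. The 32 genes held 168 peaks in Irx5KO and 171 in WT. In Irx5KO 116 were shared, 69.05% (61.7 to 75.55), against 76.7% over all protein-coding genes, and in WT 122 were, 71.35% (64.2 to 77.6), against 74.7%. The genes had less space than most, with a median of 28.4 kb nearest to their ends against 46.5 kb, and fewer peaks per length, 13.9 per 100 kb in Irx5KO and 14.1 in WT against 18.05 and 18.1. The best gene-end peaks of Mcm4, Mcm7 and Aurka were nearest to Prkdc, Ap4m1 and Cstf1 by midpoint and so do not count among their assigned peaks.

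Peaks without a partner in the other list were split about evenly. The 32 genes held 52 of them in Irx5KO and 49 in WT, so that 51.5% (41.9 to 61.0) were from Irx5KO, compared with 48.0% of such peaks over all genes. The S-phase class held 39 and 37, a share of 51.3% (40.3 to 62.2), and the mitotic class 13 and 12, a share of 52.0% (33.5 to 69.97). The difference, S-phase minus mitotic, was -0.68 percentage points, with a Newcombe interval of -21.8 to 20.8, so that no difference was detectable with these numbers of peaks. The shared share was 66.7% in the S-phase and 74.5% in the mitotic class in Irx5KO, a difference of -7.84 points (-21.2 to 7.69), and 69.2% and 76.5% in WT, a difference of -7.30 points (-20.2 to 7.94). Both intervals include 0. With an overlap of at least 50% of the peak the order turned in Irx5KO, with 60.7% shared in the S-phase and 56.9% in the mitotic class. In WT the order stayed, with 68.3% and 70.6%. Without E2f1, E2f2, E2f3, Rb1 and Cdc25a the S-phase class shared 74.65% in Irx5KO, beside the 74.5% of the mitotic class. In WT the S-phase class then shared 66.25%, beside the 76.5% of the mitotic class. More Irx5KO-only peaks were assigned to 9 genes, against 36.4% of all genes, more WT-only peaks to 9, against 36.6%, and no genotype-only peak to 10, against 14.5%.

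**Figure D4:**
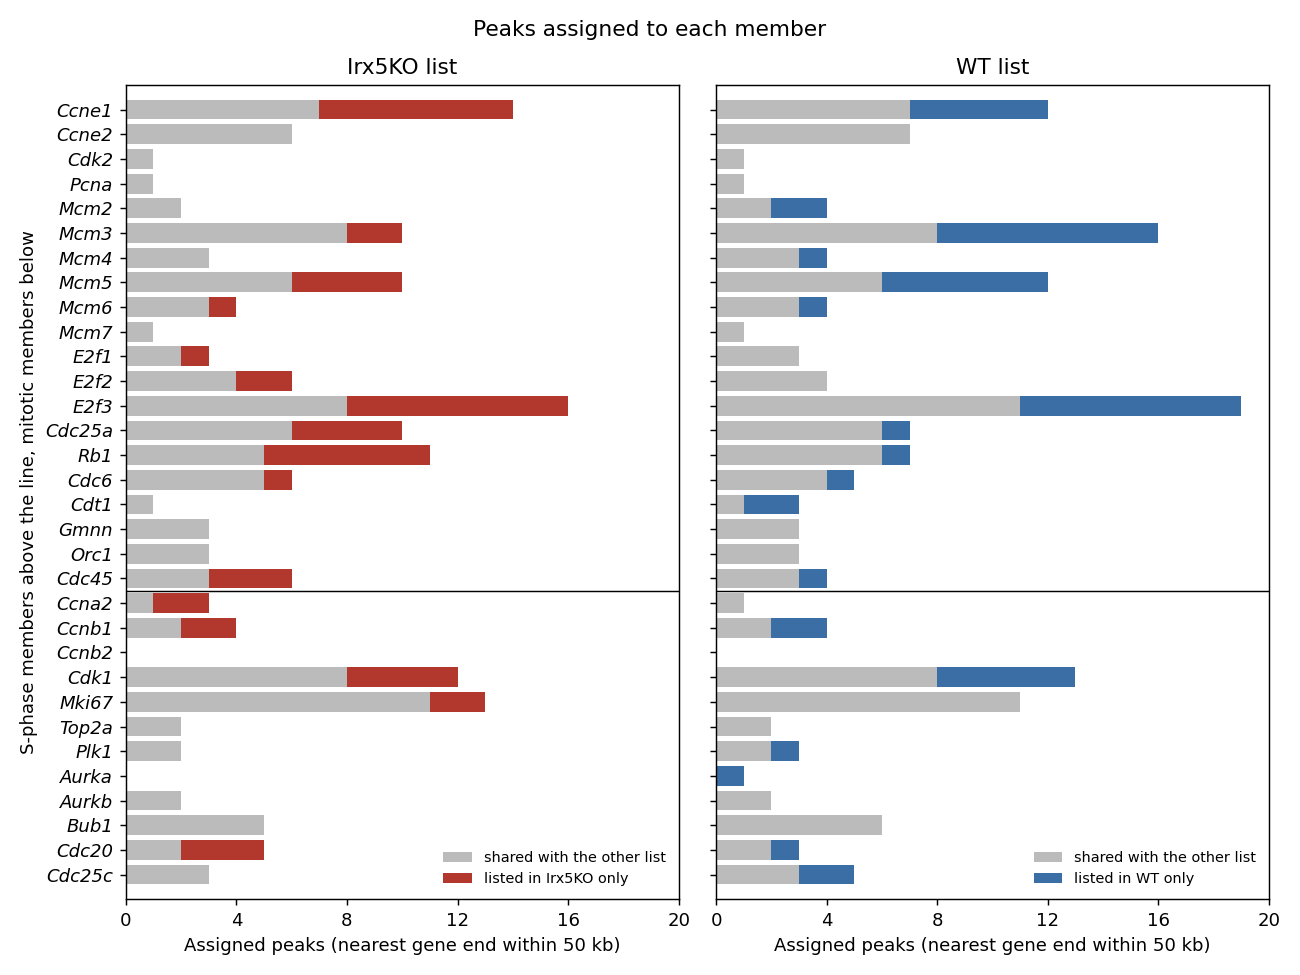
Number of peaks assigned to each gene (x axis) in the Irx5KO list (left) and the WT list (right), with S-phase members above the line and mitotic members below; grey peaks overlap the other list and coloured peaks are listed in 1 genotype only. E2f3 has the most peaks, 16 in Irx5KO and 19 in WT, and Ccnb2 has none.

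Single genes leaned either way by a few peaks. The largest excess in Irx5KO was at Rb1, with 6 Irx5KO-only and 1 WT-only peaks, then Cdc25a with 4 and 1. Ccne1 with 7 and 5, Cdc45 and Cdc20 with 3 and 1 each, and E2f2, Ccna2 and Mki67 with 2 and 0 each were tied after these. The largest excess in WT was at Mcm3, with 2 Irx5KO-only and 8 WT-only peaks. Mcm5 with 4 and 6, and Mcm2, Cdt1 and Cdc25c with 0 and 2 each followed. E2f3 had 8 of each kind, the most of any member, and Cdk1 4 and 5.

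The genotype-only peaks were also counted by role, in 8 groups formed after the values of their genes had been seen, so their extremes are a description only. Over all protein-coding genes 48.0% of such peaks were from Irx5KO. Among the 10 licensing genes 8 such peaks were from Irx5KO and 21 from WT, an Irx5KO part of 27.6% (14.7 to 45.7), of which Mcm3 gave 8 and Mcm5 gave 6 of the WT-only peaks. E2f1, E2f2, E2f3, Rb1 and Cdc25a together held 21 and 10, a share of 67.7% (50.1 to 81.4), of which E2f3 gave 8 and 8 and Rb1 6 and 1. Without these 5 genes the S-phase class held 18 Irx5KO-only peaks and its share was 40.0% (27.0 to 54.55). The G1 to S kinase genes (Ccne1, Ccne2 and Cdk2) held 7 Irx5KO-only and 5 WT-only peaks, and the fork genes (Cdc45 and Pcna) 3 and 1. Entry into mitosis (Ccna2, Ccnb1, Ccnb2, Cdk1 and Cdc25c) held 8 and 9, and the other mitotic kinases (Plk1, Aurka and Aurkb) 0 and 2. Bub1 and Cdc20 together held 3 and 1, and Top2a and Mki67 2 and 0.

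Most of the genotype-only peaks were low by score within their lists. Their median percentile was 16.9 in Irx5KO and 18.2 in WT, against 58.15 and 51.5 for the shared peaks of the same genes, and their median width was 255 bp and 260 bp, against 590 bp and 410 bp. In the upper 50% of their list stood 4 of the 52 Irx5KO-only peaks (7.69%) and 7 of the 49 WT-only peaks (14.3%), against 7.66% and 8.73% of such peaks over all genes. The 4 in Irx5KO were near Ccne1, Rb1, Mcm5 and E2f3. The highest of them lay 15.35 kb from Ccne1 (chromosome 7, 38122711 to 38122960) at percentile 65.8. The highest in WT lay 10.8 kb from Cdc25a (chromosome 9, 109864541 to 109864920) at 71.4, followed by a peak 27.2 kb from Mcm5 (chromosome 8, 75155471 to 75155770) at 70.7. Another WT-only peak among the higher ones lay inside Cdt1 (chromosome 8, 122570691 to 122570950) at 62.4.

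Sharing was also counted by distance from the gene ends. Peaks with their midpoint within 1 kb of an end made up 28 of the 168 in Irx5KO (16.7%) and 33 of the 171 in WT (19.3%), against 9.39% and 9.26% over all genes. Of these, 25 in Irx5KO (89.3%) and 28 in WT (84.85%) were shared, against 79.0% and 82.9% over all genes. Between 1 and 5 kb 30 of 45 in Irx5KO (66.7%) and 31 of 48 in WT (64.6%) were shared, against 72.1% and 72.0% over all genes. Between 5 and 10 kb 18 of 26 in Irx5KO (69.2%) and 21 of 25 in WT (84.0%) were shared. Over all genes the shares at this distance were 76.9% in Irx5KO and 74.2% in WT. The share of member peaks thus lay below the all-gene share in Irx5KO and above it in WT. In WT the share of member peaks was close to that at the ends. Between 25 and 50 kb from an end the list of Irx5KO shared 18 of its 31 peaks (58.1%) and that of WT 18 of its 33 (54.5%), against 77.5% and 74.1% over all genes. Within 1 kb all 9 peaks of the mitotic genes were shared in Irx5KO and 10 of 12 in WT. For the S-phase genes 16 of 19 and 18 of 21 were shared there. Between 5 and 10 kb the mitotic genes shared 7 of 9 in Irx5KO and 8 of 8 in WT, and the S-phase genes 11 of 17 and 13 of 17.

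Other genes of replication and mitosis, listed by function, gave the following values. Among 43 other replication genes an end peak stood in both lists at 40. At Pola2, which encodes a subunit of DNA polymerase alpha, it stood in WT only, and at Orc4 and Rfc1 in neither. Their genotype-only peaks numbered 83 in Irx5KO and 68 in WT, an Irx5KO part of 55.0% (47.0 to 62.7). Among 40 other mitotic genes it stood in both lists at 37. At Bub1b, of the spindle checkpoint, and Sgo1, which protects cohesion at the centromere, it stood in Irx5KO only, and at Espl1, which encodes separase, in WT only. They held 91 and 81 peaks, a share of 52.9% (45.5 to 60.2), with 3 and 10 at Sgo1. Among 23 cell-cycle regulators, which include E2F partners and MuvB proteins, it stood in both lists at 22 and at Skp2, which marks the inhibitor p27 for breakdown, in neither. They held 58 and 47, a share of 55.2% (45.7 to 64.4). The Irx5KO percentile was the higher in 36 of 40, 33 of 37 and 21 of 22 genes of these lists, beside 27 of 29 members and 73.5% of all genes with an end peak in both. It was also the higher in 9 of 10 HFSC markers (90.0%), described below, so this order was not particular to genes of replication and mitosis. Over all protein-coding genes 75.2% had an end peak in both lists, and 48.0% of the genotype-only peaks were from Irx5KO.

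Markers of the sorted cells and of others were read at their gene ends. An end peak stood in both lists at 10 of 11 HFSC markers, Cd34 and Krt15 among them, against 75.2% of all protein-coding genes. Trp63 had none. The median percentiles of the HFSC markers were 39.9 in Irx5KO and 31.7 in WT. Both lay below the 79.5 and 64.7 of the 32 genes and the 62.0 and 53.1 of all protein-coding genes. Markers of other cells were split: of 6 for upper follicle and interfollicular epidermis 3 had a peak in both and 3 in Irx5KO only. Of 4 immune markers 1 had one in both and 2 in WT only, and of 5 melanocyte markers 2 in both and 3 in WT only. Of 4 fibroblast markers 3 had one in both and 1 in Irx5KO only, and of 3 endothelial markers 1 in both and 1 in WT only. Cd3e, a marker of T cells, and Pecam1, of endothelium, had none in either list. The ranks of the others varied. Itgam, an immune marker, stood at percentile 99.83 in Irx5KO and 99.65 in WT, and Dct, of melanocytes, at 89.99 and 99.07. Both lay above every HFSC marker, of which Itga6 was the highest at 61.35 and 58.57. Others stood low, such as Cd74, of immune cells, at 7.11 and Mlana, of melanocytes, at 4.57, each with an end peak in WT only. The part of such cells in the values above was not tested. Each list covers all sorted cells together, so the share of cells in division and the open chromatin per cell cannot be told apart.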

How the data were processed

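ATAC-seq was measured in 2 Irx5KO and 2 WT samples. The submitters' processing notes name the build mm10 and the tools Genrich 0.6, Bowtie2, ChIPseeker 1.24.0, cutadapt 2.9, FastQC and deepTools 3.4.2. The sources used here do not give their roles or settings, the handling of duplicates or any shift for Tn5, so their effect on which peaks were listed is unknown. The authors deposited 1 list per genotype with each peak's position, summit and a score whose scale is not stated; read depth is unknown. On the 21 standard chromosomes the lists held 484992 Irx5KO and 498061 WT peaks; 1188 and 1733 on unplaced contigs were left out. Gene spans came from RefSeq GRCm38, the assembly of mm10, and starts and strands from its promoter table. Overlap, assignment, gene-end status, percentiles and motif matches were computed with Python 3.11.15, pandas 2.3.3, scipy 1.17.1 and numpy 2.4.6, and shared peaks were checked with bedtools 2.31.1 and the code on simulated data. All 32 members were counted; values were given for members without a gene-end peak in both lists, with the largest excess and with the highest and lowest ranks, and in short form for the rest. The members and lists were chosen with earlier results of these data known, and the role groups after the members' values were seen. Alternatives changed the gene-end window, distance, overlap, score threshold, list length, peak width, class and motif.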

Additional observations from a re-analysis of the deposited data

How the results depend on the processing

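The 32 genes kept 29 with a gene-end peak in both lists under windows of 500 bp and equal list lengths, and moving Ccna2 to the S-phase class or assigning within 100 kb moved no summary value past its interval or by over 1.5 times. With both lists limited to their upper 50% by score, an end peak in Irx5KO only stood at 5 genes (3 S-phase and 2 mitotic) and 5 genes (2 mitotic) had none in either list. For sharing, the peaks in the upper 50% were still compared with the full other list and not with its upper 50%. Counted so, 4 unshared upper peaks of the 32 genes were from Irx5KO and 7 from WT, an Irx5KO part of 36.4%. Of the upper peaks 94.7% in Irx5KO and 89.9% in WT were shared. The S-phase genes held 4 and 6 (40.0%), with 92.7% and 88.2% shared, and the mitotic genes 0 and 1 (0%), with 100% and 94.4% shared, a difference of 40.0 points with an interval of -42.7 to 68.7. Windows of 3000 bp gave 1 gene in Irx5KO only, the S-phase gene Orc1, and 1 in neither, Ccnb2, with 0 S-phase genes in neither. Among peaks up to 2000 bp wide 1 gene, the S-phase gene E2f3, had its end peak in WT alone, since its Irx5KO peak is wider. Assignment within 10 kb left 26 Irx5KO-only and 26 WT-only peaks, 18 and 18 of them at S-phase genes and 8 of the first kind at mitotic genes. With an overlap of 50% of the peak 59.5% of Irx5KO peaks were shared, 60.7% at S-phase genes and 56.9% at mitotic genes, which turns their order, with 22 Irx5KO-only peaks at the mitotic genes. In WT the order stayed, with 68.3% shared at S-phase genes and 70.6% at mitotic genes. Ranked among gene-end peaks alone, the median percentile of the members was 83.75 in Irx5KO and 77.2 in WT. The medians of the 2 lists thus lay closer together than the 79.5 and 64.7 found among all peaks. Without the 5 regulators the S-phase class had 1 gene with no gene-end peak and 18 Irx5KO-only peaks (40.0%). It then shared 74.65% of its Irx5KO peaks and 66.25% of its WT peaks. The shorter E2F core (TTCGCGC or TTGGCGC) stood in 47.4% of S-phase, 33.3% of mitotic and 4.999% of all windows. In all, 189 of 229 recomputed summary values and 320 of 384 counts of single genes stayed within their interval or, for counts, within 1.5 times. The limit to the upper 50% by score moved most values, 21 summary values against 13 that stayed and 33 single-gene counts against 31. Its fall from 29 to 22 genes with an end peak in both lists is within 1.5 times and so counts as stayed. No paired analysis was possible because each list pools both replicates, and no replicate could be left out for the same reason. Depth is not given, so a peak missing from a list was not called at its depth and threshold.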

Other observations

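Peaks of 5 kb or more were assigned to members 7 times in each list, 4.17% of their Irx5KO peaks and 4.09% of their WT peaks, against 3.08% and 3.25% over all genes. They lay near Mcm5, E2f3, Rb1, Gmnn, Mki67 and Bub1, with 2 at E2f3, and all overlapped the other list. The widest, 7.61 kb from Gmnn (chromosome 13, 24763991 to 24775110), had the same borders in both lists and was 11120 bp wide, at the 93.6th percentile in Irx5KO and the 95.9th in WT. The peak near Mki67 was 5620 bp wide in Irx5KO and 5630 bp in WT.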
